A study of Mus musculus with 4 samples.

Results

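Nuclear receptors are transcription factors, many of which are switched by a small lipid-soluble ligand. The genes described here are 45 mouse nuclear receptor genes, chosen by family membership and not by any measured value, of 21951 protein-coding genes with annotated starts. Each was read for transcription initiation in E14.5 mouse embryos, from liver and from yolk sac, with 2 libraries per tissue. The assay was PRO-seq, a nuclear run-on that marks the RNA held by engaged polymerases, here started from isolated chromatin of flash-frozen tissue. Each library was a pool of tissue from 6 embryos. All embryos came from C57BL/6J mothers, and from fathers of mixed C57BL/6J and CAST/EiJ background chosen to carry CAST/EiJ polymorphisms alone at the Dlk1/Gtl2 locus of chromosome 12. The sample labels write the strain of both tissues as mixed C57BL/6h and CAST/EiJ, so the groups differ in tissue and share the cross. The deposited values are peak lists, named for dREG, a program that finds the paired initiation of promoters and enhancers in run-on data, and each peak has a position and a score. A peak records that initiation was called at a place, and its score is the authors' own, not an amount of RNA.

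Receptors for thyroid hormone, retinoic acid, fatty acids, oxysterols, bile acids and vitamin D bind DNA largely as heterodimers with a retinoid X receptor, whereas steroid receptors bind as homodimers. With ligand they exchange corepressors for coactivators at their target genes. Orphan receptors have no established ligand or need none. In adult liver these proteins set the daily and dietary rhythm of lipid, bile acid and drug metabolism. The yolk sac endoderm carries out similar secretory and lipid transport work for the embryo before the placenta and the liver take it over.

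The 2 liver lists held 24863 and 24333 peaks and the 2 yolk sac lists 50525 and 43055, with a lowest score of 0.800 in each, so the members' counts are given beside the share over all protein-coding genes of the same lists. Promoter calls at markers of the cell types in each tissue differed as well. In the order liver replicate 1, liver replicate 2, yolk sac replicate 1, yolk sac replicate 2, of 9 erythroid markers 9, 9, 3 and 3 were called, of 8 hepatocyte markers 6, 5, 6 and 6, and of 8 yolk sac endoderm markers 6, 3, 8 and 8. Of 8 mesenchymal and mesothelial markers 2, 5, 8 and 8 were called, of 6 endothelial markers 4, 5, 6 and 6, and of 6 macrophage markers 4, 4, 6 and 5. The defining hepatocyte gene Alb was called in all 4 libraries, Klf1 and 5 further erythroid genes in liver alone, and the endocytic receptor genes Cubn and Amn of the yolk sac endoderm in yolk sac alone. The part of these cell types, and of list length, in the results on receptor genes was not tested unless a value is given. In bulk tissue, fewer cells of a type and less initiation per cell cannot be told apart.

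Promoter sequences of selected members whose calls, peak positions or peak widths differed between the tissues are shown first. A link between sequence and tissue was not tested. They are RefSeq windows of 300 bases on GRCm38.p6, from 250 bases before a start to 50 bases after it. Each is written 5′ to 3′ on the strand of the gene. Esr1 (estrogen receptor alpha, chr10:4611739-4612038, plus strand), Esr2 (estrogen receptor beta, chr12:76177210-76177509, minus strand) and Nr2f1 (COUP-TFI, chr13:78198824-78199123, minus strand) are shown because their promoters were called in yolk sac alone. Nr2f2 (COUP-TFII, chr7:70366697-70366996, minus strand) and the downstream start of Nr1h4 (the bile acid receptor FXR, chr10:89506609-89506908, minus strand) are windows that yolk sac peaks alone overlapped. A liver peak in replicate 1 lay just upstream of the Nr2f2 window, and the liver peaks of Nr1h4 lay at its other start. Vdr (the vitamin D receptor, chr15:97908247-97908546, minus strand) is shown for its wider peaks in yolk sac. Nr0b2 (SHP, chr4:133553126-133553425, plus strand) is the single member window overlapped by liver peaks alone. Capitals mark matches on either strand to the motifs described at the end.
Esr1: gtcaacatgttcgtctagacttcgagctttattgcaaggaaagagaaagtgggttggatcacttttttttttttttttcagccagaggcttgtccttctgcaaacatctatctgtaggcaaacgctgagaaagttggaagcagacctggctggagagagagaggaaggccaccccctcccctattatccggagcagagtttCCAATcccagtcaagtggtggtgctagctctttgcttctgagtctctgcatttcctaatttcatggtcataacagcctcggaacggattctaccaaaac
Esr2: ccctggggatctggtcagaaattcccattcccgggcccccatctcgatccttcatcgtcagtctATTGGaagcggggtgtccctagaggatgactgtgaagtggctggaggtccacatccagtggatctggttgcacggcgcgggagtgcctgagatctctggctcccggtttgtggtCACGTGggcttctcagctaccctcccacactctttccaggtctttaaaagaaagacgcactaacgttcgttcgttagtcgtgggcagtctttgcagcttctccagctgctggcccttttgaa
Nr2f1: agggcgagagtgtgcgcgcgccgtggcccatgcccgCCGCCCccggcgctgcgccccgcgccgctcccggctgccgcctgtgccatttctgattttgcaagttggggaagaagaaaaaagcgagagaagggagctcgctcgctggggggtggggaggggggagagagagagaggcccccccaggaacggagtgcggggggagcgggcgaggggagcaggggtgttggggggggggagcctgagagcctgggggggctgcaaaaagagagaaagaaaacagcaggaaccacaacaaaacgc
Nr2f2: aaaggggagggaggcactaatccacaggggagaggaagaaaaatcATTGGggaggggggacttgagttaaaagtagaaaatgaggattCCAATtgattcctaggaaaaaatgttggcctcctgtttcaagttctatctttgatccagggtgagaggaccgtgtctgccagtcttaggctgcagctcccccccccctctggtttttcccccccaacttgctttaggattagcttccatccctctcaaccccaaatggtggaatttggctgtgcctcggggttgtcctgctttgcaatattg
Nr1h4: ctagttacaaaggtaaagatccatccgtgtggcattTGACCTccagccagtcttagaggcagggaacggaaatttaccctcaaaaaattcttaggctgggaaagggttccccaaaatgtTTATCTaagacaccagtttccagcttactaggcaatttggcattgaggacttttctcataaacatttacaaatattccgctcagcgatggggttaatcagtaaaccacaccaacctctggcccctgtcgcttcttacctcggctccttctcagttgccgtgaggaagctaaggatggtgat
Vdr: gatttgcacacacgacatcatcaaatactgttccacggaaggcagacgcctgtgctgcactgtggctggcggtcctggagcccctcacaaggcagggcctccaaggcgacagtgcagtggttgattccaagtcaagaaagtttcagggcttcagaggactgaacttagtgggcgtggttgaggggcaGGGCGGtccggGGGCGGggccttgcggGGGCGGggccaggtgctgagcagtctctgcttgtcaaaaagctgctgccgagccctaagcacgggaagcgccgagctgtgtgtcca
Nr0b2: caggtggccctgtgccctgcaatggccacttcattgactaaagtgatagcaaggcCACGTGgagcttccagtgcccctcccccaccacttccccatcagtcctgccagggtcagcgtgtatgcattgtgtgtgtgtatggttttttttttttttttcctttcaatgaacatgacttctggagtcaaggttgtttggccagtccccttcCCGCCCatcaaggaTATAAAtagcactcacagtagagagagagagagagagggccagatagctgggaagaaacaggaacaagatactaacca

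Most receptor genes carried a called promoter in both tissues. A promoter call means a peak that overlapped the 500 bp on either side of an annotated start of the gene. Such peaks were found for 32 and 33 members in the 2 liver libraries and for 37 and 35 in the 2 yolk sac libraries. The groups did not overlap, at 72.2% ± 1.57 of members in liver (SD, n = 2) and 80.0% ± 3.14 in yolk sac, a ratio of 1.11. An exact two-sided permutation test gave p = 0.333, which is the smallest value that 2 libraries against 2 allow. Over all protein-coding genes the shares were 57.0% ± 1.29 and 63.1% ± 0.957, again a ratio of 1.11, so receptor promoters were more often called than the average promoter in each library and were called more often in yolk sac by the same ratio. With lists cut to equal length the members' counts were 32, 33, 30 and 33, which overlapped, with the lower mean in yolk sac.

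Sorted by tissue, 31 of 45 members (68.9%) were called in all 4 libraries, against 53.8% of all protein-coding genes. No library held a promoter peak for 7 members (15.6%, against 34.2% overall). These were Rorb, a ROR paralog of brain and retina, Nr1i3, the xenobiotic receptor CAR, Nr2e1 and Nr2e3, which act in neural stem cells and photoreceptors, Pgr, the progesterone receptor, Esrrb, a pluripotency factor, and Nr5a1, the steroidogenic factor SF-1. A call in both yolk sac libraries and neither liver library was seen for 3 members, Esr1, Esr2 and Nr2f1, a share of 6.67% that lay close to the 5.25% of all genes. The reverse was seen for 1 member, Hnf4g, or 2.22% against 1.01% overall. The last 3 members, Pparg, Rxrg and Esrrg, had mixed calls (6.67%, against 5.73%).

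**Figure D1:**
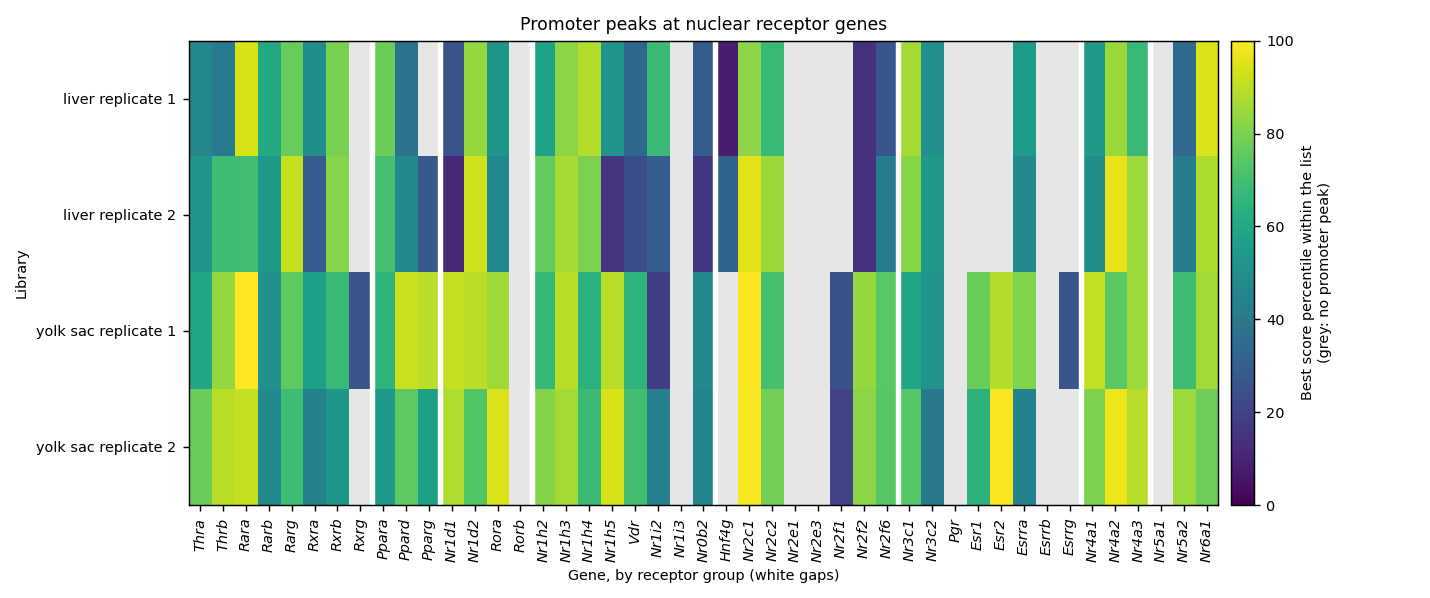
Within-list score percentile of the best promoter peak of each nuclear receptor gene (columns) in each of the 4 libraries (rows), with grey cells for no promoter peak. Filled cells in all 4 rows mark the 31 genes called throughout, and Esr1, Esr2 and Nr2f1 are filled in the yolk sac rows alone.

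The strength of a promoter peak is given below as its percentile, the share of peaks in the same list with an equal or lower score. Lists of different length make these ranks comparable within a library, not between tissues. The called members had medians of 56.5 and 54.2 in the liver libraries, below the medians of 67.6 and 67.0 for all called protein-coding genes. In the yolk sac libraries the members' medians were 74.9 and 75.4, above the 71.6 and 72.0 of all called genes. Thus receptor promoters ranked in the lower part of the called promoters of liver and slightly above the middle of those of yolk sac.

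The 5 members whose lowest percentile over the libraries was highest are given next. Nr2c1, the testicular receptor TR2, which binds globin gene promoters in erythroid cells, stood at 82.6, 95.6, 99.5 and 98.8 in the order given above. Nr1h3, the oxysterol receptor LXRα, stood at 82.5, 86.8, 89.3 and 86.4, although its upstream peak also covered a start of the neighbouring gene Acp2. Nr6a1, the germ cell nuclear factor, ranged from 77.9 to 94.3, Nr4a2, an immediate early orphan receptor, from 74.9 to 97.4, and Nr1d2, the clock repressor REV-ERBβ, from 72.7 to 92.9. The best promoter peaks of these 5 genes lay above the median of all called protein-coding promoters in each list. The genes were chosen for high ranks in every list, so this is no separate result.

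The estrogen receptors gave the clearest tissue calls. Esr1 on chromosome 10 had no promoter peak in either liver list, and yolk sac peaks at 4611451 to 4612952 and 4611451 to 4612752 (GRCm38) with percentiles of 77.6 and 64.6. A yolk sac gene-body peak lay in Esr1 22.4 kb from its 5′ end, also in both yolk sac lists and neither liver list. Esr2 on chromosome 12 had yolk sac peaks at 76176451 to 76177902 and 76176501 to 76177802, with percentiles of 88.5 and 99.0, and none in liver. Its own gene-body peak, 22.6 kb from the 5′ end, was likewise called in yolk sac alone. Esr1 and Esr2 kept this pattern under every alternative setting run for promoter calls.

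The other steroid and estrogen-related receptors did not follow the estrogen receptors. Nr3c1, the glucocorticoid receptor, was called in all 4 libraries with percentiles of 86.7, 82.2, 58.8 and 73.7. Its summed promoter peak width was nearly the same throughout, at 3252, 3352, 3402 and 3252 bp. Nr3c2, the mineralocorticoid receptor, was also called throughout, at both of 2 neighbouring start regions and at percentiles of 50.6, 54.2, 51.7 and 40.6. Esrra, a regulator of mitochondrial genes, was called in all 4 at 55.1, 47.2, 80.9 and 43.8. Esrrg, its oxidative-tissue paralog, had promoter peaks in yolk sac replicate 1 alone, at percentiles of 8.34 and 26.2 for its 2 start regions. Without that library Esrrg had no promoter peak at all.

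Hnf4g, a paralog of the hepatocyte factor HNF4α that is best known from gut epithelium, was the single member called in liver alone. Its peaks on chromosome 3 spanned 3507851 to 3508252 and 3507701 to 3508502, which is 402 and 802 bp. They were weak, with percentiles of 7.51 and 32.2 in their lists. The call was lost when the lower-scoring 50% of each list was set aside. No gene-body peak was found in Hnf4g.

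COUP transcription factors, orphan receptors of mesenchyme and veins, had either no liver call or a smaller summed width in liver. Nr2f1 was called in both yolk sac libraries at percentiles of 24.7 and 20.2 and in neither liver library. The peak lay at 78199001 to 78199602 and 78198851 to 78199502 of chromosome 13 and also reached a start of the noncoding gene A830082K12Rik, so the call cannot be assigned to Nr2f1 alone. The call in both yolk sac libraries was also lost with a 250 bp window, with peak midpoints in the window, with the higher-scoring 50% of each list and with lists of equal length. Nr2f2 was called in all 4 libraries but in different ways. Liver replicate 1 had a peak of 202 bp at the first start and liver replicate 2 a peak of 352 bp at another start 8.33 kb downstream, with percentiles of 14.1 and 14.2. The yolk sac libraries had promoter peaks of 8456 and 7358 bp in sum, with best percentiles of 84.2 and 82.7. Nr2f6, a further COUP relative, stood at 26.7, 41.9, 74.3 and 74.0 with widths of 2052, 2704, 4954 and 4052 bp. A larger summed width in both yolk sac lists, as for Nr2f2 and Nr2f6, was seen for 61.3% of the members called throughout. Among all genes called throughout the share was 38.1%, so the pattern is not particular to these relatives. Of the remaining NR2 genes, Nr2c1 and Nr2c2 (TR2 and TR4) were called throughout, Nr2e1 and Nr2e3 in no library and Hnf4g in liver alone.

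Receptors for retinoids and thyroid hormone were mostly called everywhere, with 7 of 8 in all 4 libraries. Rara, the retinoic acid receptor alpha, had best percentiles of 93.9, 69.3, 99.8 and 91.1 and the widest promoter peaks of any member called throughout, 5079 bp on average. Rarb, which is itself a classic retinoic acid target, ranked at 61.3, 54.6, 50.6 and 47.5 with a peak that also covered a start of the noncoding gene Gm48162, and Rarg at 76.9, 91.1, 75.3 and 68.9. Thra and Thrb, the thyroid hormone receptors, ranged from 46.4 to 77.4 and from 41.1 to 89.8. Among the shared partners, Rxra and Rxrb were called in all 4 libraries, Rxrb with a peak that also covered a start of Slc39a7. Rxrg was called in yolk sac replicate 1 alone, at a percentile of 25.7. No gene of this group was thus called in both libraries of 1 tissue and neither of the other.

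The peroxisome proliferator-activated receptors, sensors of fatty acids, split by gene. Ppara, which drives fatty acid oxidation, was called throughout at 77.4, 70.6, 65.6 and 54.3. Ppard was called throughout at 38.6, 47.3, 92.0 and 75.4. Pparg, the adipocyte regulator, was absent from liver replicate 1 and was called at 28.4 in liver replicate 2, 89.7 in yolk sac replicate 1 and 56.9 in yolk sac replicate 2. Without liver replicate 1 Pparg therefore counted as called in all libraries, and without liver replicate 2 as called in yolk sac alone.

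Sterol, bile acid, vitamin D and xenobiotic receptors were called in all 4 libraries for 7 of 8 members. Nr1h2, the widely expressed LXRβ, ranked at 57.9, 75.8, 67.1 and 81.4. Nr1h5, a sterol-binding FXR relative, ranked at 52.3, 15.1, 89.3 and 93.8. Nr1i2, the xenobiotic receptor PXR, had wider liver peaks, at 1452 and 952 bp against 452 and 502 bp in yolk sac, and its percentiles were 68.1, 30.1, 18.6 and 43.8. Nr0b2, an atypical receptor without a DNA-binding domain that is induced by FXR, was called in all 4 libraries, but the peaks did not lie in the same place. The liver peaks, at 133552851 to 133553802 and 133553151 to 133553452 of chromosome 4, spanned the start at 133553376. The yolk sac peaks, at 133552451 to 133553102 and 133552451 to 133553052, ended upstream of it. With a 250 bp window Nr0b2 counted as called in liver alone.

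The clock receptors and the NR4A group were called broadly. Nr1d1, which encodes REV-ERBα, stood at 25.6, 11.5, 91.0 and 88.0. Rora, the activator that competes with REV-ERB proteins for their sites, stood at 52.9, 46.8, 85.8 and 94.2. All 3 NR4A genes, immediate early genes induced by many stimuli, were called in all 4 libraries. Nr4a1 stood at 54.1, 49.0, 90.8 and 80.2, and Nr4a3 at 67.9, 85.4, 85.4 and 89.4. Nr5a2, the bile acid synthesis regulator LRH-1, stood at 34.8, 42.5, 68.9 and 85.5. These percentiles are ranks within lists of different length, so they are not compared between the tissues. They describe 2 kinds of list and are not a test of change.

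Called promoter sequence of receptor genes was longer in yolk sac, partly through additional starts. Over the 31 members called throughout, the median summed width was 1854 and 1954 bp in the liver libraries and 2852 and 2502 bp in the yolk sac libraries. The means were 1904 ± 70.7 bp and 2677 ± 247 bp (SD, n = 2), a ratio of 1.41, with p = 0.333 in the exact permutation test. All protein-coding genes called throughout had medians of 1752, 1602, 1902 and 1702 bp, which overlapped between the tissues (p = 0.667, exact permutation test). By gene, 19 of the 31 members (61.3%) had a larger summed width in each yolk sac list than in any liver list, against 38.1% of all genes called throughout. Only Nr1i2 had a larger sum in both liver libraries, 3.23% against 20.1%, and 11 members overlapped. The median ratio of yolk sac to liver width was 1.45 over the members and 1.06 over all genes called throughout.

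A sum over peaks grows with each further start, so widths were also read only at start regions called in all 4 libraries, which 30 members had. Their medians were 1928 and 2028 bp in liver and 2577 and 2227 bp in yolk sac, a ratio of 1.21 (p = 0.333, exact permutation test). On this count 14 members (46.7%, against 35.5% of all genes) were wider in both yolk sac libraries. Wider in both liver libraries were 2 (6.67%, against 20.6%), Nr1i2 and Ppara, the latter with 2052 and 2102 bp against 1702 and 1552 bp. Nr1h4, Ppard and Nr5a2 overlapped at their shared starts, so their larger yolk sac sums came with peaks at further starts.

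The size of the difference varied widely among members. Nr2f2 had the highest ratio of summed widths, 28.5, with 1 liver promoter peak of 202 or 352 bp at a different start in each replicate against several in yolk sac. Liver peaks of 702 and 1002 bp that lie under a yolk sac promoter peak of Nr2f2 fell outside its promoter windows and are not in this ratio. Vdr followed with 1102 and 302 bp in liver and 4254 and 3754 bp in yolk sac, a ratio of 5.70. Nr1d1 had 702 and 502 bp against 2852 and 2652 bp, a ratio of 4.57. At the shared start of Vdr alone the widths were 1102 and 302 bp against 2452 and 2152 bp. For the summed widths of these 3 genes each yolk sac library exceeded each liver library by more than the spread within a tissue. Nr1h4 had 1202 and 2152 bp against 4154 bp in each yolk sac library, but its shared start had 1202, 2152, 2052 and 2002 bp, which overlapped. Rxra had 2002 and 1652 bp against 6054 and 2302 bp, so the size of its difference rested on yolk sac replicate 1. Among the 5 members with the largest sums, Rara averaged 5079 bp, Rarg 4895, Nr2f2 4092, Nr4a2 3854 and Rora 3654, and all 5 had larger sums in yolk sac. Members with hardly any difference included Nr3c1 with a ratio of 1.01, Nr1d2 with 1.01 and Nr4a3 with 0.945. When each list was reduced to its 24333 highest-scoring peaks, 27 members were called throughout. Of these, 17 (63.0%) had larger sums in both yolk sac libraries and 0 in both liver libraries, against 36.6% and 20.7% of all genes called throughout in the reduced lists.

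**Figure D2:**
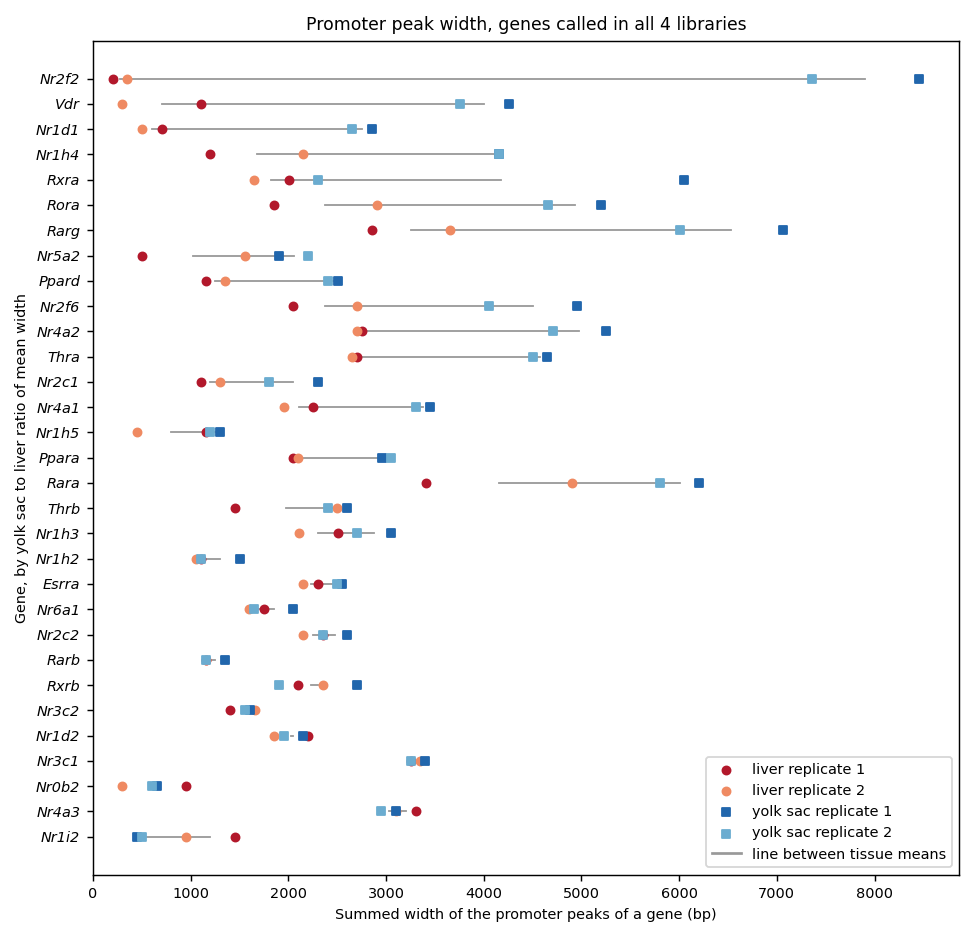
Summed width of promoter peaks (bp) in each library for the 31 nuclear receptor genes called in all 4 libraries, with a line between the tissue means of each gene. Yolk sac points, which include further starts, lie to the right of both liver points for 19 genes, by far the most for Nr2f2, and to their left for Nr1i2.

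Several receptor genes used a further start in yolk sac. Annotated starts closer than 1000 bp were joined into start regions, which gave 133 regions for the 45 members, and 39 members had more than 1. Of these regions 39 (29.3%) were called in all 4 libraries, against 26.5% over all protein-coding genes. Calls in yolk sac alone were found for 12 regions (9.02%, against 4.93%) in 11 genes, and calls in liver alone for 1 region, that of Hnf4g (0.752%, against 1.19%). With lists of equal length these counts were 8 and 4. Among the 31 members called throughout, 8 had a yolk-sac-only start region and 0 a liver-only one. These 8 were Thra, Rarg, Ppara, Ppard, Rora, Nr1h4, Vdr and Nr2f2. No share over all genes called throughout is given for this count per gene, so it cannot be read as particular to receptors. For 9 of the 12 regions the peaks in both yolk sac lists reached no other start region of the gene. For the other 3, in Thra, Rora and Nr2f2, a yolk sac peak also reached a neighbouring region. In Nr2f2 this held only in part. Yolk sac replicate 2 had 4154 bp of peaks at this region and 1502 bp at the neighbouring one, so a further peak lay at this region alone.

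Nr1h4, which encodes the bile acid receptor FXR from 2 promoters, shows the pattern best. Its upstream start was called in all 4 libraries, at percentiles of 88.3, 80.2, 63.7 and 68.2. Its downstream start, 26.9 kb further and the first exon of 2 protein-coding transcripts, had peaks of 2102 and 2152 bp in yolk sac at percentiles of 38.2 and 42.2 and none in liver. The Nr1h4 sequence printed above is this downstream promoter. Ppard had its upstream start called throughout, while a start 39.0 kb downstream was called in yolk sac at 72.3 and 75.3. Vdr had a yolk-sac-only start 13.8 kb from the first, at 55.9 and 53.9. The start in Rarg that was called in yolk sac alone, 7.17 kb from the first, had narrow peaks of 502 and 402 bp at 38.0 and 27.4, while 3 other start regions of Rarg were called throughout. In Ppara the yolk sac start lay 37.2 kb from the first and belonged to a noncoding transcript, with percentiles of 53.9 and 51.1.

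**Figure D3:**
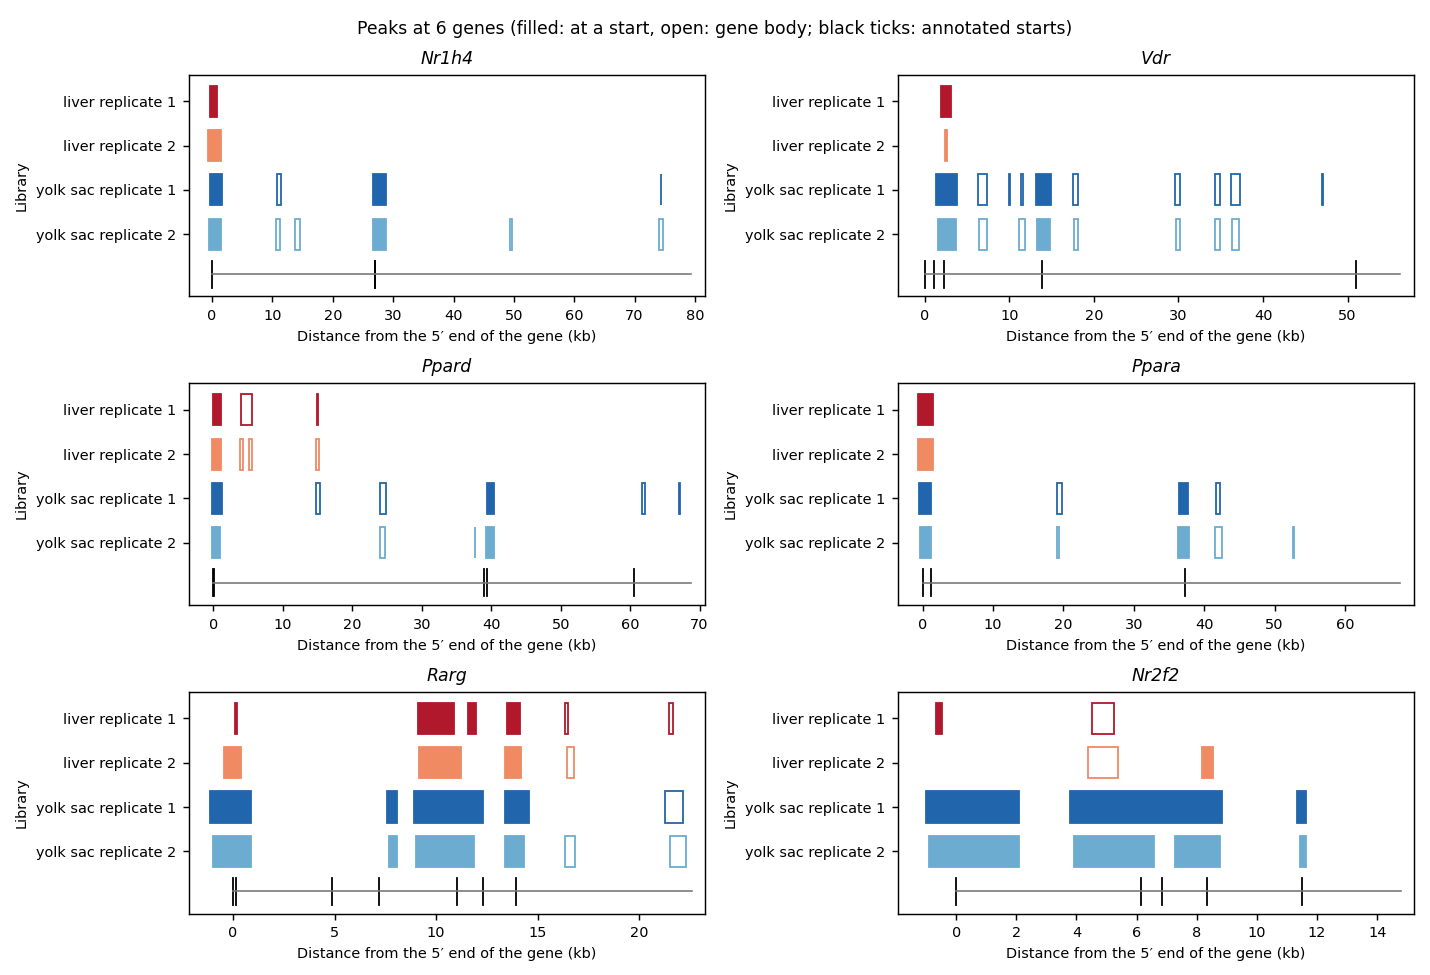
Peaks in Nr1h4, Vdr, Ppard, Ppara, Rarg and Nr2f2 by library, drawn by distance from the 5′ end of the gene in kb, with filled boxes for peaks at an annotated start, open boxes for gene-body peaks and black ticks for starts. Filled boxes present in the yolk sac libraries alone mark the downstream starts described for each gene, such as that of Nr1h4 at 26.9 kb.

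A few further starts had mixed calls. Nr5a2 had an upstream start called throughout and a start 10.9 kb downstream called in 3 libraries, with percentiles of 26.5 in liver replicate 2 and 68.9 and 85.5 in yolk sac. Single yolk sac calls were seen at downstream starts of Rxra (63.8 kb, percentile 48.6) and Nr2f6 (6.17 kb, percentile 8.46), both in replicate 1. Without yolk sac replicate 2 the number of yolk-sac-only start regions of members was 18.

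Gene-body peaks, which lie inside a gene and away from its annotated starts and include intragenic enhancers, were far more numerous in yolk sac. The members held 32 and 28 such peaks in the liver libraries and 98 and 86 in the yolk sac libraries. The means were 30.0 ± 2.83 and 92.0 ± 8.49 (SD, n = 2), a ratio of 3.07 (p = 0.333, exact permutation test). All protein-coding genes gave a ratio of 2.52. Members were long, 111 kb on average against 48.9 kb, and their density per Mb of gene was 6.01 for liver and 18.4 for yolk sac, against 6.35 and 16.0 for all protein-coding genes. By gene, and so without scaling to length, 22 members (48.9%, against 17.4% of all genes) had more gene-body peaks in both yolk sac libraries. More in both liver libraries were found for 3 members, Nr2f2, Nr4a2 and Nr4a3 (6.67%, against 3.48%). Gene-body peaks of the members at list lengths of 24333 numbered 32, 28, 33 and 33, a ratio of 1.10, where all protein-coding genes gave 0.855.

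The largest numbers were found in a few receptors and are not scaled to gene length. Rora (734 kb), Esrrg (606 kb), Rarb (388 kb), Thrb (378 kb) and Nr5a2 (118 kb) are longer than the members' average of 111 kb. Rxra (86.5 kb), Vdr (56.2 kb) and Rara (47.1 kb) are shorter. Rora, whose starts lie 636 kb apart, had 3 and 2 in liver against 13 and 11 from yolk sac. Rxra had 3, 2, 8 and 6, Rara 3, 3, 5 and 6, Nr5a2 2, 3, 6 and 4, and Thrb 1, 1, 7 and 6. Vdr had 0 in both liver libraries and 8 and 6 in yolk sac. Rarb and Esrrg each had 0 and 0 against 7 and 6. For Vdr, Rarb and Esrrg the gene body was thus empty of peaks in liver, while the promoters of Vdr and Rarb were called there. No gene-body peak was found in any library for 11 members. Nr2e3, Esrrb and Nr5a1 had gene-body peaks without a promoter call in any library.

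**Figure D4:**
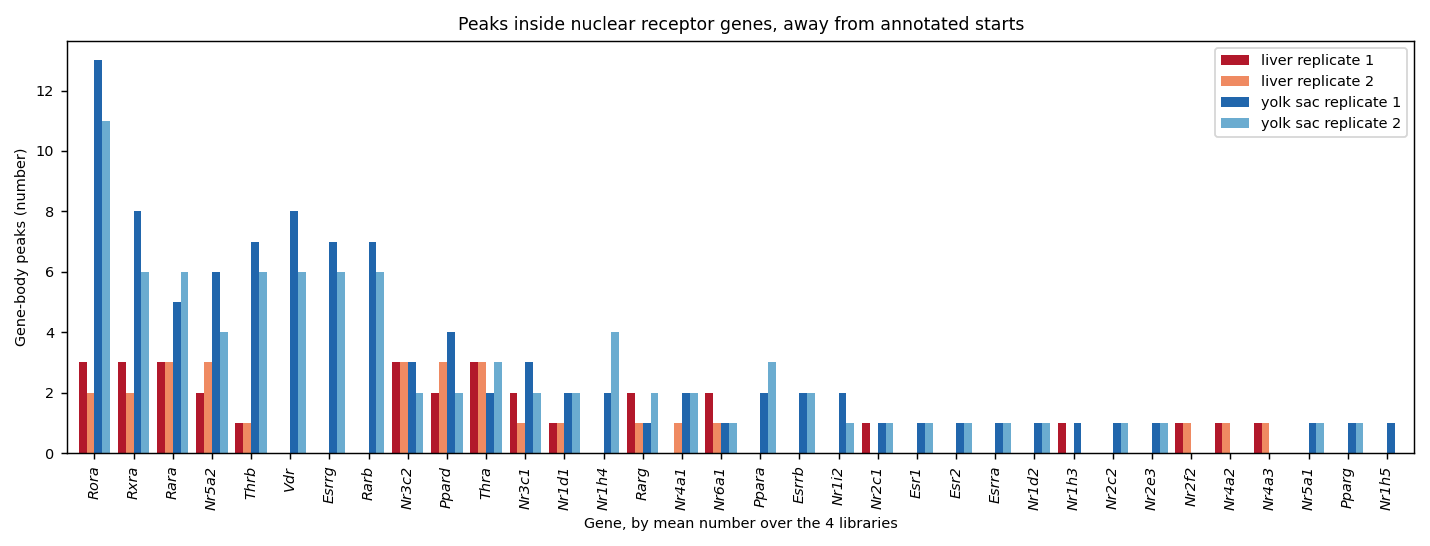
Number of gene-body peaks per library in the 34 nuclear receptor genes that had any, ordered by the mean over the 4 libraries. Rora leads with 13 and 11 peaks in yolk sac against 3 and 2 in liver, and Vdr, Esrrg and Rarb have bars in yolk sac alone.

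Merged across libraries, the gene-body peaks formed 120 regions. Yolk sac alone held 58 of them (48.3%, against 37.2% of the regions of all protein-coding genes), and all 4 libraries held 11 (9.17%, against 8.05%). Mixed calls made up 43 (35.8%, against 45.9%). Liver alone held 8 regions (6.67%, against 8.85%), 1 each in Rxra, Ppard, Rora, Nr2f2, Nr3c1, Nr3c2, Nr4a2 and Nr4a3. In Nr2f2 (chromosome 7, 70361351 to 70362352) and Nr4a2 (chromosome 2, 57116101 to 57117652) the liver region lay under a wide promoter peak of both yolk sac libraries, so for these 2 genes the higher liver count comes with a longer yolk sac promoter peak. The liver regions of Rxra, Ppard, Rora, Nr3c1, Nr3c2 and Nr4a3 had no such peak over them. Regions shared by all 4 libraries lay in Thra, Thrb, Rara, Nr1d1, Nr3c2, Nr5a2 and Nr6a1. Thra and Nr1d1 overlap at their 3′ ends and shared 1 region, at 98767551 to 98769852 of chromosome 11, and the region of Nr6a1 lay at a start of Nr6a1os.

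The called receptor promoters were richer in GC and CpG than those without a call. RefSeq gave 61 windows for 41 members. The 29 windows with a peak in all 4 libraries had a median GC content of 65.7% and a ratio of observed to expected CpG of 0.769, and the 21 windows without any peak had 54.0% and 0.373. Over all RefSeq promoters the medians were 62.3% and 0.795 with a peak in all 4 libraries and 47.0% and 0.204 without. The sequences printed for Esr1, with 46.3% GC and a CpG ratio of 0.373, Nr2f2, with 49.7% and 0.109, and Nr0b2, with 49.7% and 0.162, were poor in CpG. Those printed for Nr2f1, with 68.0% and 0.717, and Esr2, with 56.0% and 0.595, were richer.

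A search on both strands counted exact letters. AGGTCA, the receptor half-site, was in 18.0% of member windows and 16.3% of all 32851 windows of the same length, and the printed downstream Nr1h4 window holds 1. A direct repeat of those letters on 1 strand with any 1 base between the copies, each of which also counts as a half-site, was in 0 member windows and 0.0396% of all. TATAAA was in 11.5% of member windows against 13.6% of all. The box CCAAT was in 34.4% of member windows against 37.4% of all. GGGCGG, an SP-type box, was in 44.3% against 35.7%, with 3 matches in the printed Vdr window. Among windows with a peak in all 4 libraries the order was reversed, 58.6% of member windows against 68.5% of all. Among windows without any peak it was 19.0% against 12.0%. The site AGATAA, bound by erythroid regulators, was in 6.56% of member windows against 11.2% of all. The E-box CACGTG was in 9.84% of member windows against 7.15% of all. The cyclic AMP element TGACGTCA was in 3.28% of member windows against 1.79% of all. The Nr0b2 window holds the TATA, SP-type and E-box letters once each. These are matches of letters, not measured binding.

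The proteins that receptors work with were called evenly. Promoter peaks were present for all 20 coregulator genes in all 4 libraries, against 53.8% of all protein-coding genes, among them the coactivators Ncoa1 and Med1 and the corepressor Ncor1. Of 25 genes that supply or remove ligands, 11 and 12 had liver calls and 15 and 14 had yolk sac calls. Among those called in yolk sac alone were Dio2, which activates thyroid hormone, Aldh1a1, which makes retinoic acid, and Cyp24a1, which inactivates vitamin D. Called in liver alone was Fabp1, the fatty acid binding protein of liver and gut. Thus 4 of 25 (16.0%) were yolk-sac-only, against 5.25% of all protein-coding genes, 1 was liver-only, against 1.01%, and 7 (28.0%) had no call, against 34.2%.

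Of 22 lipid and bile acid target genes, 12 and 13 had liver calls and 15 and 14 had yolk sac calls. The 2 that were called in yolk sac alone, Abcg5 and Abcg8, are LXR targets that form a sterol exporter and share 1 divergent promoter, so they count as 1 peak. Calls in yolk sac alone thus made up 9.09% of this list and no call 31.8%, against 5.25% and 34.2% of all genes. Of 15 target genes of hormone, retinoid and clock receptors, 8 and 9 had liver calls and 12 and 12 had yolk sac calls. Those called in yolk sac alone were Thrsp, a lipogenic thyroid hormone target, Pck1, the gluconeogenic enzyme, and Trpv6, a vitamin D target that carries calcium, which is 3 of 15, against 5.25% of all genes. For each of the 3 lists the tissues did not overlap, with p = 0.333 in the exact permutation test. The same held over all protein-coding genes, at 57.0% in liver and 63.1% in yolk sac, a ratio of 1.11. The ratios were 1.26 for ligand genes, 1.16 for lipid and bile acid targets and 1.41 for hormone, retinoid and clock targets. None of the differences in these 3 lists kept more than 0.5 genes in favour of yolk sac when the lists were cut to equal length.

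**Figure D5:**
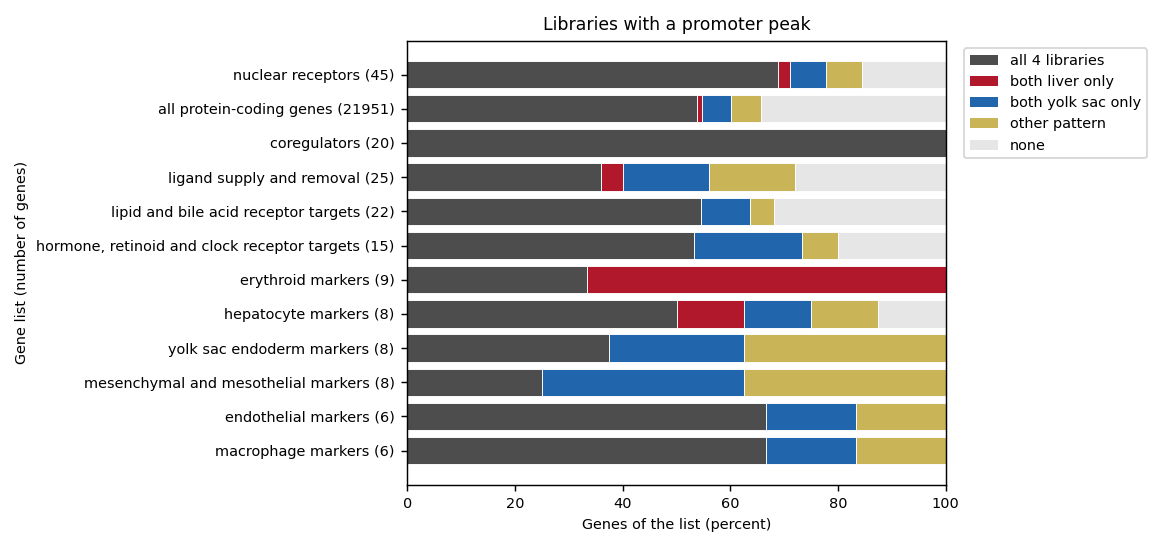
Percent of genes in each list with a promoter peak in all 4 libraries, in yolk sac alone, in liver alone, in a mixed pattern or in none. All 20 coregulators fall in the first class, and the nuclear receptor genes show 68.9% in it.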

How the data were processed

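The deposited files are 1 peak list per library. The authors' lists give position and a score, and the file names credit dREG. Per the submitters' processing notes, the build was mm10 (GRCm38), with Bowtie2 and bedtools among the tools; the caller's version and filters are not given in the sources used here. Every list begins at a score of 0.800, and read depth is unknown.

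Starts came from GENCODE M21 (protein-coding genes). Peaks were assigned with Python 3.11.15 and numpy 2.4.6: a promoter peak overlaps 500 bp on either side of a start, and a gene-body peak has its midpoint in the gene and is no promoter peak. Widths of a gene's promoter peaks were summed. The functions were tested on simulated data. Group values are compared by exact two-sided permutation over libraries, which gives p = 0.333 whenever the tissues do not overlap, whatever the spread. Nothing says how far the 2 pools of a tissue were separate, so their spread may be technical. Members and lists were chosen with earlier results of these data known. Named in full are tissue-only and mixed members, members with differing start regions, and the 5 with most gene-body peaks, highest lowest percentile and widest peaks; of other lists, tissue-only genes, of which 1 is not reported here. Alternatives were other windows, score thresholds, start sets and joining distances, list lengths, and leaving out a library. Sequences are RefSeq's (GRCm38.p6), matched by symbol for 41 of 45 members.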

Additional observations from a re-analysis of the deposited data

How the results depend on the processing

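With each list cut to its 24333 highest-scoring peaks, the yolk sac excess of called members reversed to -1 genes, that of ligand genes to -0.5 and that of lipid and bile acid targets to -1, while coregulators gave -0.5 and hormone, retinoid and clock targets 0.5. Liver-only members numbered 2 (Hnf4g and Nr3c2), liver-only start regions 4, and the log2 ratio of gene-body peaks fell from 1.62 to 0.14. Start regions called in yolk sac alone numbered 8. These cut lists are shorter for yolk sac by construction. The width result kept its direction there.

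With the higher-scoring 50% of each list the member difference was 10.5, with 14 members in all 4 libraries, 12 in none, 9 in yolk sac alone and 0 in liver alone. The gene-body log2 ratio was 3.56, and start regions were 21 in yolk sac alone and 0 in liver alone. Coregulators differed by 1, ligand genes by 5, lipid and bile acid targets by 0.5 and hormone targets by 1. With peak midpoints in the window, the member difference was 0.5, liver-only members 5 (Nr1d1, Rora, Nr1h4, Nr0b2 and Hnf4g), ligand genes 1.5 and hormone targets 2.5. A 250 bp window gave 2 liver-only members and 4.5 ligand genes, a 1000 bp window 3 lipid and bile acid targets, and starts of coding transcripts 1. The cause was not tested. Without peaks at another gene's start, chosen after seeing the data, the calls of Nr2f1, Rarb and Rxrb were lost, and 10 members had none. Summing peaks only at start regions called in all 4 libraries, also chosen after seeing the data, gave a width difference of 424 bp in place of 773.

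Leaving out each library in turn gave member differences of 2.5 to 4.5, 3 to 5 yolk-sac-only members (5 without yolk sac replicate 2, when Rxrg and Esrrg are added) and 12 to 18 yolk-sac-only start regions. Hormone targets gave 3 to 4, widths 598 to 948 bp and gene-body log2 ratios 1.52 to 1.72. The replicate block left the member difference at 3.5, the gene-body log2 ratio at 1.62 and the width difference at 773 bp, with 0.5 as the exact permutation p, the smallest possible. Same-numbered libraries share only a number: the correlation of width deviations was -0.02 over 11805 genes. Depth limits what absence of a peak can show, since no read counts were used here.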
